A study of Homo sapiens with 20 samples.

Results

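The genes described here are endoplasmic reticulum (ER) chaperones and the genes of the unfolded protein response (UPR), 33 in all, taken as a named list and not by how they moved. A probe set of 1 gene was found for 31 of them, and all 31 were among the 13787 genes that passed the filter on low values, of 19775 genes on the array with such a probe set. TXNDC5 and SYVN1 have probe sets that name several genes, so no value is given for them. The list holds 9 members of the HSP70 and HSP90 chaperone system, 2 lectin chaperones, 7 disulphide and prolyl isomerases, 8 factors of ER-associated degradation, 5 stress sensors and transcription factors, and 2 subunits of the Sec61 channel.

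RNA of 5 established human cell lines, T-ALL1, KOPT-K, CEM, DND41 and HPB-ALL, all derived from T cell acute lymphoblastic leukaemia (T-ALL), was hybridised to 20 Affymetrix U133 Plus 2.0 arrays. Each line was kept for 16 h with either a control peptide or NBD, a peptide copy of the NEMO-binding domain, and each such group has 2 arrays. NBD stops NEMO (IKKγ) from binding IKKα and IKKβ and so blocks canonical NF-kB signalling, and the question put to this gene set was whether its response to the peptide depended on the line. The labels give the dose as 100 µM in some fields and 100 mM in others, and the paired arrays of a group are not said to be separate cultures, so the p-values cover array-to-array spread that may be technical. No untreated cells were analysed here, and in such bulk samples fewer cells making a transcript and less of it per cell cannot be told apart.

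The ER is where secreted and membrane proteins enter the secretory route, fold, receive glycans and disulphide bonds, and are sent out or degraded. When unfolded proteins build up, the chaperone BiP (HSPA5) leaves the membrane sensors IRE1 (ERN1), PERK (EIF2AK3) and ATF6. IRE1 then splices the messenger RNA of XBP1 into its active form, ATF6 is cut to release a transcription factor, and PERK slows translation while favouring ATF4. In T cells calnexin and calreticulin help assemble the T cell receptor and MHC class I molecules. XBP1 and ATF6 raise chaperone genes through short promoter elements, the ER stress response element (ERSE) and its variant ERSE-II.

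Both elements are printed first because some of the listed genes hold them, though most hold neither. ERSE was searched as CCAAT and CCACG parted by 9 bases, and ERSE-II as ATTGG and CCACG parted by 1 base, on both strands of promoter windows of 300 bases (250 before and 50 after a gene's start) in the RefSeq table of build GRCh38.p14. Of the 33 genes 30 had a window. ERSE was found in 7 of them, against 0.0916% of the 27305 genes with a window and 0.0769% of all 35116 windows. ERSE-II was found in 3 of the 30, against 0.0696% of genes. The element was first defined on promoters of this kind, so the excess is no independent finding, and a match is a description of letters and not a shown binding site. Each stretch below runs 5′ to 3′ on the strand named, with 20 bases on each side of the element and the searched letters in capitals.
HSPA5 (chr9:125241371-125241429, minus strand): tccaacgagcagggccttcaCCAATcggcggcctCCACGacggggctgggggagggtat
HSP90B1, distal (chr12:103930196-103930254, plus strand): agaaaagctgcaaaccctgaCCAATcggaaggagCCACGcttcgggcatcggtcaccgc
HSP90B1, proximal (chr12:103930301-103930359, minus strand): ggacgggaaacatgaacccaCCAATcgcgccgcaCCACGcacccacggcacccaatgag
CALR (chr19:12938364-12938422, minus strand): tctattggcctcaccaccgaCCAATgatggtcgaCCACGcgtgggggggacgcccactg
CANX (chr5:179698758-179698816, plus strand): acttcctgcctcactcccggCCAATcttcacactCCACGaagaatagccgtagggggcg
PDIA6 (chr2:10812833-10812891, minus strand): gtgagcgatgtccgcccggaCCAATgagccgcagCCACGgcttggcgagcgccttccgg
CRELD2 (chr22:49918534-49918592, minus strand): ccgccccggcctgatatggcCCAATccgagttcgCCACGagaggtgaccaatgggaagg
XBP1 (chr22:28800583-28800641, minus strand): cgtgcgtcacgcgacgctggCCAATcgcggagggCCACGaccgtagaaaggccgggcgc
HERPUD1, ERSE-II (chr16:56932005-56932055, plus strand): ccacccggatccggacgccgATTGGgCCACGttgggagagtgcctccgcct
HYOU1, ERSE-II, proximal (chr11:119057254-119057304, plus strand): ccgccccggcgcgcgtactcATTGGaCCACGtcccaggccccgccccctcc
HYOU1, ERSE-II, distal (chr11:119057360-119057410, plus strand): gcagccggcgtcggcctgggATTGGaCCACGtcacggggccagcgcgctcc
SDF2L1, ERSE-II (chr22:21642094-21642144, minus strand): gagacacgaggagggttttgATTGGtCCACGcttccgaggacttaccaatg

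The elements lay 52 bases before the start site in XBP1 and 66 in HSPA5, and 225 in CALR. HSP90B1 held 2 of them, at 194 and 89 bases before the start. The core letters TGACGTG of the UPR element were also searched and were present in HYOU1, SEC61A1 and TXNDC5, 3 of 30 genes, against 2.4% of all genes with a window. In HYOU1 this match overlapped the distal ERSE-II.

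The deposited values come in 2 formats. T-ALL1 and KOPT-K have up to 7 decimals and mean intensities of 386.9 to 396.1, and CEM, DND41 and HPB-ALL have 2 decimals and means of 341.0 to 347.7, so levels are compared below only between lines of 1 format. For actin the 3′ probe set read above the 5′ one by a log2 difference that grows as RNA breaks down, and this was 3.16 and 2.05 for T-ALL1 with control peptide and 1.07 and 0.99 with NBD in that line. On the other 16 arrays it lay between 0.73 and 1.81. The T-ALL1 control arrays also differed most from each other in these genes, with a gap over 0.3 (log2) for 8 of 31 members, against 0 to 2 in the other 9 groups. Some of the T-ALL1 results that moved with 1 control array are given with and without it.

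With NBD the listed genes moved little, and in different directions in different lines. In DND41 24 of 31 members lay below 0 and 3 fell, MANF, PDIA4 and PPIB. In CEM 23 lay below 0 and XBP1 fell. In T-ALL1 20 lay above 0 and HSP90B1 and HERPUD1 rose. In KOPT-K 19 lay below 0 and 12 above, and ERN1 rose. In HPB-ALL no member passed the limma test, and 3 (9.68%) had an unadjusted p under 0.05, against 10.4% of all genes. An effect is the log2 level with NBD minus that with control peptide. A gene is said to rise or fall at a limma adjusted p (Benjamini-Hochberg over all 13787 genes) under 0.05. The main fit used all 20 arrays, the filter on low values, the probe set of highest mean, no further normalization and limma's standard prior. Calls are from this main fit unless another setting is named. The share of all genes called was 3.45% in T-ALL1, 1.28% in KOPT-K, 1.13% in CEM, 2.47% in DND41 and 0.783% in HPB-ALL. The members called were 6.45%, 3.23%, 3.23%, 9.68% and 0% in the same order, which are 2, 1, 1, 3 and 0 genes.

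The median effect of the members was 0.10 in T-ALL1, -0.03 in KOPT-K, -0.09 in CEM, -0.17 in DND41 and 0.03 in HPB-ALL, where the median of all genes was between -0.02 and -0.01. In DND41 22.6% of members lay above 0 against 45.5% of all genes, and in T-ALL1 64.5% against 47.3%. Centring each array on its median left 27 of 31 below 0 in DND41 and 20 of 31 above 0 in T-ALL1, and quantile normalization left 26 below and 21 above. No member was called in the same direction in more than 1 line. Values are given array by array below for the 9 members called in a comparison of NBD with control and for some near the threshold, a choice made after the values were seen.

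**Figure D1:**
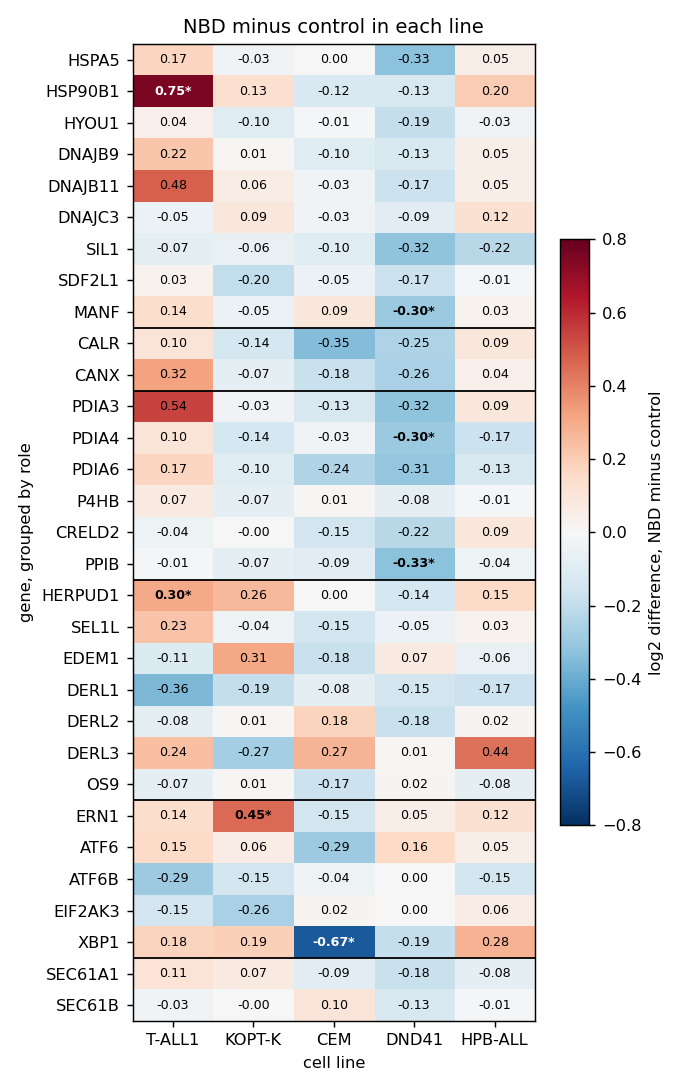
NBD effect (log2, NBD minus control, 2 arrays per group) of the 31 measured members in each line, with genes in rows grouped by role and an asterisk where the limma adjusted p was under 0.05. The DND41 column is mostly blue, with 24 of 31 members below 0, and the darkest cells are HSP90B1 in T-ALL1 at 0.75 and XBP1 in CEM at -0.67.

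Among the sensors and transcription factors, XBP1, whose spliced product drives chaperone and degradation genes, had the most line-dependent response. Its log2 level in CEM was 8.82 and 8.83 with control peptide and 8.39 and 7.93 with NBD. In DND41 it was 10.66 and 10.55 against 10.44 and 10.40. In T-ALL1 it was 7.96 and 7.87 against 8.13 and 8.07. Control and NBD arrays did not overlap in these 3 lines, and NBD was the lower in CEM and DND41 and the higher in T-ALL1. In KOPT-K the values were 7.08 and 6.79 with control and 7.14 and 7.12 with NBD, again without overlap and with NBD the higher. The effect was -0.67 ± 0.13 (SE) in CEM, 1.59-fold lower (limma adjusted p = 0.0238), -0.19 in DND41, 0.18 in T-ALL1, 0.19 in KOPT-K and 0.28 in HPB-ALL. The array values do not part spliced from unspliced XBP1. The CEM call was lost without either CEM control array or without the CEM NBD array at 7.93, when the effect was -0.43. A second XBP1 probe set, with a mean log2 level of 4.92 over all arrays and so below the filter value, gave 0.16 in CEM and -0.46 in T-ALL1, both opposite in sign to the set used.

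ERN1, the sensor kinase and nuclease that splices XBP1, rose in KOPT-K. Its intensity there, on the linear scale, was 635 and 755 with control peptide and 872 and 1024 with NBD. Both NBD arrays were above both controls, and the log2 effect was 0.45 ± 0.10 (SE), 1.36-fold (limma adjusted p = 0.0409). The effect in the other lines was between -0.15 in CEM and 0.14 in T-ALL1. The call was lost without any 1 of 16 of the 20 arrays, with adjusted p up to 0.348, and a second ERN1 probe set above the filter value, with a mean of 7.12, gave -0.05 in KOPT-K and -0.44 in T-ALL1.

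The other sensors passed no test in any line. ATF6, the sensor that is cut in the Golgi, had its largest effect in CEM at -0.29 ± 0.07 (SE; limma adjusted p = 0.0603), where the control arrays were 8.73 and 8.84 and the NBD arrays 8.51 and 8.47. EIF2AK3, the PERK kinase, had effects between -0.26 in KOPT-K and 0.06 in HPB-ALL. In T-ALL1 it was -0.05 without the control array with the actin difference of 3.16, and -0.25 without the other. ATF6B, the paralog of ATF6, had effects between -0.29 in T-ALL1 and 0.00 in DND41, and 2 other ATF6B probe sets gave 0.50 and 0.73 in T-ALL1, opposite in sign to the one used.

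Of the 9 chaperones of the HSP70 and HSP90 system, all 9 lay below 0 in DND41, also after median centring and after quantile normalization, but MANF was the only one that passed the test there. MANF, an ER protein that binds BiP and is secreted under stress, had log2 levels in DND41 of 10.71 and 10.66 with control peptide and 10.42 and 10.35 with NBD. The arrays did not overlap, and the effect was -0.30 ± 0.07 (SE), with a limma adjusted p of 0.0284. The effect in the other lines was between -0.05 in KOPT-K and 0.14 in T-ALL1. HSPA5, the BiP chaperone itself, went from 11.35 and 11.28 to 11.03 and 10.94 in DND41, an effect of -0.33 ± 0.11 (SE) that did not pass (limma adjusted p = 0.152). Its effects were 0.17 in T-ALL1, 0.00 in CEM, -0.03 in KOPT-K and 0.05 in HPB-ALL. The T-ALL1 effect of HSPA5 was -0.02 without the control array whose actin difference was 3.16, and 0.36 without the other, where it passed the test (adjusted p = 0.021 by limma). SIL1, the nucleotide exchange factor of BiP, had log2 levels of 8.79 and 8.77 with control peptide and 8.49 and 8.43 with NBD in DND41. In HPB-ALL they were 8.14 and 8.26 against 7.99 and 7.98, so the arrays did not overlap in either line. The effects of SIL1 were -0.32 in DND41 and -0.22 in HPB-ALL, neither past the limma test (adjusted p = 0.0868 and 0.401).

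HSP90B1 (GRP94), the HSP90 of the ER lumen, had the largest effect in a single line of all members, in T-ALL1. Its log2 level was 9.63 and 10.26 on the control arrays and 10.70 and 10.69 with NBD. Both NBD arrays were above both controls, but the controls differed from each other by more than the higher one did from NBD. The effect was 0.75 ± 0.19 (SE), 1.68-fold (limma adjusted p = 0.046). It was 0.44 without the control array whose actin difference was 3.16, and no longer passed, and 1.06 without the other control array. With the actin difference as a covariate it was -0.34 (adjusted p = 0.469). The call was lost without any 1 of 17 of the 20 arrays. In the other lines the effect of HSP90B1 was 0.20 in HPB-ALL, 0.13 in KOPT-K, -0.12 in CEM and -0.13 in DND41, none past the test. The probe set used is one that Affymetrix marks as able to bind related transcripts, and a second of the same kind gave 1.02 in T-ALL1 and -0.26 in KOPT-K.

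Several other members followed the same T-ALL1 control array. DNAJB11, an HSP40 partner of BiP, read 10.36 and 10.85 with control peptide and 11.15 and 11.01 with NBD. PDIA3, a disulphide isomerase that works with the lectin chaperones, read 10.74 and 11.63 against 11.78 and 11.67. In both genes the lower control was the array with the actin difference of 3.16. Their effects were 0.48 and 0.54 with both control arrays (limma adjusted p = 0.0557 and 0.126), 0.23 and 0.09 without that array, and 0.73 and 0.98 without the other. The number of members called in T-ALL1 rose without the array with the actin difference of 2.05 and fell without the one with 3.16. The number of all genes called moved the same way, so this shift was not particular to the listed genes. The part of RNA integrity in these values was not tested beyond the covariate.

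Other probe sets of these genes also read higher in T-ALL1. The 21 members with other probe sets above the filter value had 39 of them, and in T-ALL1 27 of the 39 gave a higher effect than the probe set used, with a median gap of 0.15, the widest of the 5 lines. Of all 44 other probe sets, those below the filter value included, 5 were called in T-ALL1 when all probe sets were tested together. The share of all probe sets called in that test was not taken, so the 5 cannot be set against it. Single probe sets were not tested with either T-ALL1 control array left out. P4HB, the classical protein disulphide isomerase, gave 1.39 on one of them and 0.07 on the set used, and DNAJC3, an ER HSP40 protein, gave 0.73 against -0.05. In KOPT-K none of the 39 was called and the median gap was 0.06. In DND41 a second PPIB probe set was called lower at -0.49.

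**Figure D2:**
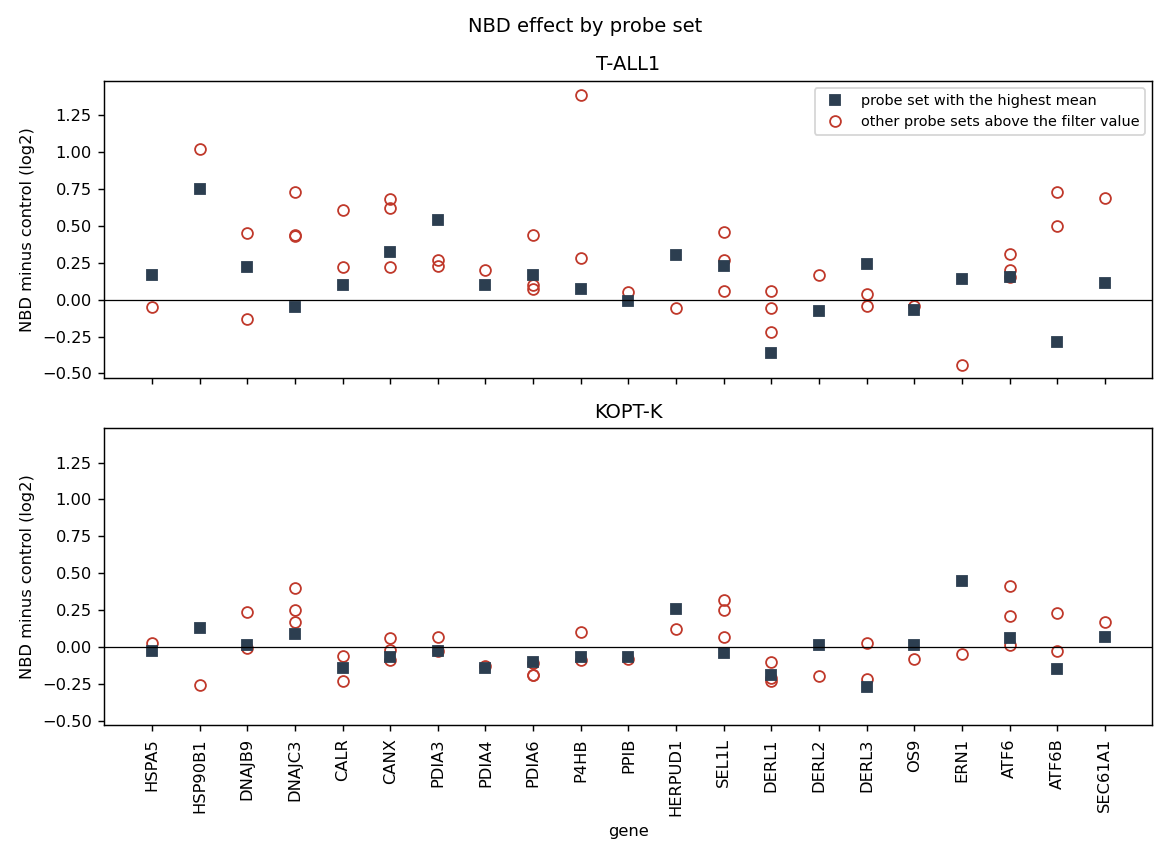
NBD effect (log2, NBD minus control) in T-ALL1 (top) and KOPT-K (bottom) of each probe set above the filter value, for the 21 members with more than 1, where squares are the probe set with the highest mean and circles the others. In T-ALL1 the circles spread up to 1.39 for P4HB, and in KOPT-K they reach 0.41 at most, for ATF6.

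The lectin chaperones calnexin (CANX) and calreticulin (CALR), which hold newly made glycoproteins, passed no test in any line in the main fit. After median centring, and with a trended robust prior, CALR was called lower in CEM. With that prior CANX was called higher in T-ALL1. CALR was lower with NBD in CEM, at 10.17 and 10.20 against 10.61 and 10.47 with control peptide, an effect of -0.35 ± 0.08 (SE; limma adjusted p = 0.0617). In DND41 it was -0.25 and in T-ALL1 0.10. CANX had effects of 0.32 in T-ALL1, -0.18 in CEM and -0.26 in DND41, and another of its probe sets was called higher in T-ALL1 at 0.68. The T-ALL1 effect of CANX was 0.14 without the control array with the actin difference of 3.16, and 0.51 without the other, where it passed (limma adjusted p = 0.0019).

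The disulphide and prolyl isomerases were the role with the lowest median in DND41, at -0.31, with all 6 measured genes below 0 and PDIA4 and PPIB past the test. PDIA4 (ERp72), a disulphide isomerase, had log2 levels in DND41 of 10.03 and 9.97 with control peptide and 9.72 and 9.68 with NBD. PPIB (cyclophilin B), a prolyl isomerase, had 12.52 and 12.50 against 12.20 and 12.16. In both the NBD arrays lay below the controls, by 0.25 or more at the nearest pair. The effects were -0.30 ± 0.07 (SE) for PDIA4 and -0.33 ± 0.06 for PPIB, 1.23-fold and 1.25-fold lower (limma adjusted p = 0.041 and 0.0138). PDIA6 (-0.31), PDIA3 (-0.32), CRELD2 (-0.22) and P4HB (-0.08) did not pass there. In KOPT-K all 6 were between -0.14 and 0.00. The PPIB call in DND41 was lost without any 1 of 3 arrays, and the PDIA4 call without any 1 of 12, with adjusted p up to 0.303.

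Among the factors of ER-associated degradation, HERPUD1, a membrane protein that gathers the degradation complex, rose in T-ALL1 and was higher in every NBD array than in every control array of KOPT-K and HPB-ALL. In T-ALL1 its log2 level was 11.04 and 10.94 with control peptide and 11.33 and 11.23 with NBD. In KOPT-K it was 10.95 and 11.13 against 11.33 and 11.28, and in HPB-ALL 10.24 and 10.24 against 10.38 and 10.39. In DND41 the order was the other way, 10.71 and 10.69 against 10.58 and 10.54, and in CEM the arrays overlapped. The effect was 0.30 ± 0.07 (SE) in T-ALL1, 1.23-fold (limma adjusted p = 0.0397), 0.26 in KOPT-K (0.112), 0.15 in HPB-ALL (0.508), 0.00 in CEM and -0.14 in DND41 (0.395). Without the T-ALL1 control array with the actin difference of 3.16 the T-ALL1 effect was 0.34, and without the other it was 0.25. The T-ALL1 call was lost without any 1 of 15 of the 20 arrays. It was also lost under 6 of 8 other settings, the actin covariate and median centring among them, with limma adjusted p up to 0.569. A second HERPUD1 probe set near the filter value, with a mean of 5.12, gave -0.06.

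DERL1, a channel protein of the degradation route, was lower with NBD in all 5 lines, though in no single line past the test. Its log2 level was 10.50 and 10.16 against 9.93 and 9.997 in T-ALL1, and 10.70 and 10.72 against 10.58 and 10.45 in KOPT-K. In DND41 it was 10.41 and 10.41 against 10.29 and 10.24, and in HPB-ALL 10.70 and 10.58 against 10.44 and 10.50. In CEM the arrays overlapped, with an effect of -0.08. The 5 effects ran from -0.36 in T-ALL1 to -0.08 in CEM. In T-ALL1 it was -0.19 without the control array with the actin difference of 3.16, and -0.54 without the other, where it passed (limma adjusted p = 0.0023). EDEM1, a mannosidase-like protein that marks misfolded glycoproteins, had its largest effect in KOPT-K, where it went from 10.14 and 10.25 to 10.48 and 10.52, an effect of 0.31 ± 0.07 (SE) that did not pass (limma adjusted p = 0.0612). SEL1L, DERL2, DERL3 and OS9 passed no test. DERL3 was the dimmest of these genes, with log2 levels of 5.13 to 6.71, and had an SE of 0.30.

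The Sec61 channel, through which new proteins enter the ER, passed no test in the main fit. With the mean of all its probe sets, SEC61A1 was called higher in T-ALL1. SEC61A1 had effects between -0.18 in DND41 and 0.11 in T-ALL1, and SEC61B between -0.13 in DND41 and 0.10 in CEM.

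**Figure D3:**
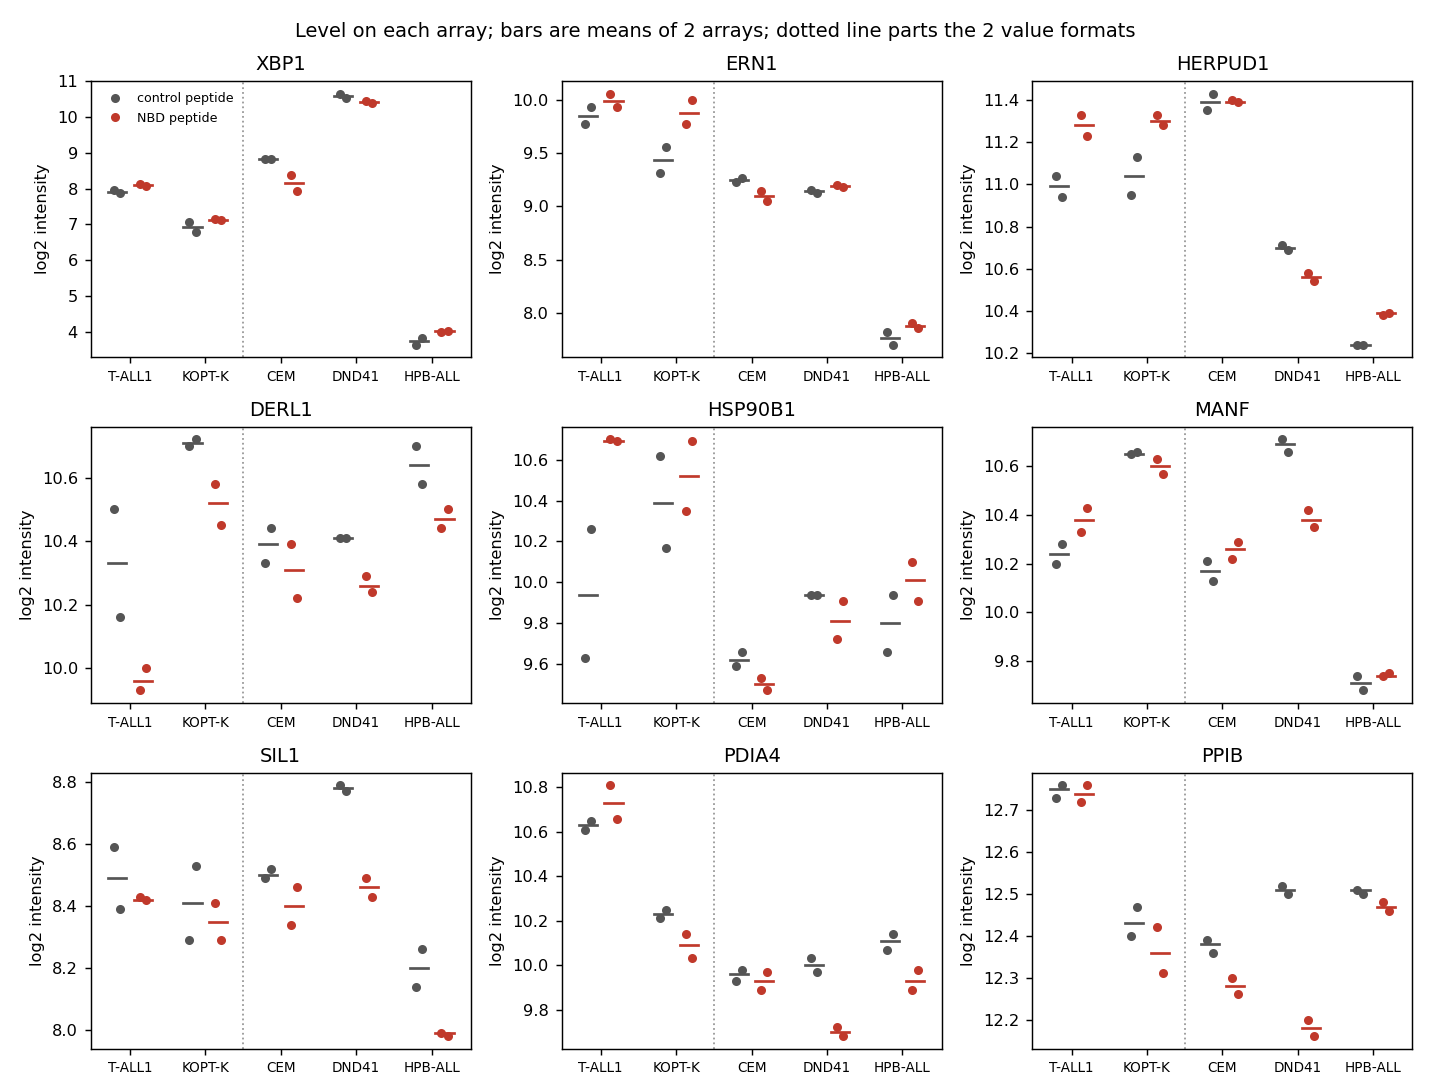
Log2 intensity on each of the 20 arrays of the 9 members called in a comparison of NBD with control, by line, with control peptide in grey and NBD in red, bars at the mean of 2 arrays, and a dotted line between the lines of the 2 value formats. The vertical scale differs between panels, and the 2 grey points of HSP90B1 and DERL1 in T-ALL1 stand apart from each other, at 9.63 and 10.26 and at 10.50 and 10.16.

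Averaged over the 5 lines with equal weight, 4 members were called, or 12.9%, against 8.38% of all genes. HERPUD1 rose by 0.11 ± 0.03 (SE), and DERL1 fell by 0.19 ± 0.05, SIL1 by 0.15 ± 0.04 and PPIB by 0.11 ± 0.03 (limma adjusted p = 0.0418, 0.0198, 0.0313 and 0.0254). DERL1, SIL1 and PPIB had a negative effect in all 5 lines, and HERPUD1 was positive in T-ALL1, KOPT-K and HPB-ALL, 0.00 in CEM and negative in DND41. DERL1 was called without any 1 array in turn, and the other 3 lost the call without any 1 of 16, 12 and 11 arrays. The DERL1 call was lost under 6 of 11 other settings, the mean of all its probe sets among them. With the actin difference as a covariate DERL1 was at -0.10 (limma adjusted p = 0.19), and SIL1 and PPIB lost the call too. With the 5 lines as the replicates in place of the arrays, none of the 31 was called. With T-ALL1 left out, HERPUD1 was at 0.07 and lost the call (limma adjusted p = 0.231). Another probe set of PDIA6 was called lower over the 5 lines at -0.16.

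Whether the response differed between lines was tested in 2 ways. A moderated F-test over the 5 effects called XBP1 (F = 9.58, limma adjusted p = 0.0432) and no other member, against 1.83% of all genes, and 14 of 31 members (45.2%) had an unadjusted p under 0.05, against 16.8% of all genes. ATF6, EDEM1 and MANF came next, with adjusted p of 0.074, 0.0821 and 0.0828. The XBP1 call was lost without any 1 of 15 of the 20 arrays and under 8 of 10 other settings, and with T-ALL1 left out F was 10.3 (adjusted p = 0.0706).

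The second test set the mean effect of T-ALL1 and KOPT-K against the mean of CEM and DND41, a grouping chosen with earlier results of these data known. Of the 31 members 25 had a more positive effect in T-ALL1 and KOPT-K, with a median difference of 0.16, against 50.1% of all genes and a median of 0.00. None was called by limma, against 0.428% of all genes, while 17 (54.8%) had an unadjusted p under 0.05, against 11.3% of all genes, and limma with a trended robust prior called 2. The largest differences were XBP1 at 0.61 ± 0.13 (SE; adjusted p = 0.0557), HSP90B1 at 0.56 ± 0.19 (0.263), PDIA3 at 0.48 ± 0.19 (0.352) and DNAJB11 at 0.37 ± 0.13 (0.274). HERPUD1, at 0.35 ± 0.07, had an adjusted p of 0.0536. XBP1 and HERPUD1 had differences of 0.62 and 0.33 with KOPT-K alone on the first side and of 0.61 and 0.36 with T-ALL1 alone, values that share the CEM and DND41 arrays. Over all 30 alternative settings XBP1 ran from 0.04 to 0.73 and HERPUD1 from 0.19 to 0.47.

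EIF2AK3 (-0.22), ATF6B (-0.20), DERL1 (-0.16) and DERL3 (-0.15) lay furthest on the other side. Without the T-ALL1 control array with the actin difference of 2.05, PDIA3 was at 0.70, HSP90B1 at 0.72, HERPUD1 at 0.32 and EIF2AK3 at -0.27. Without the one with 3.16 they were at 0.26, 0.41, 0.37 and -0.17. The lines on the 2 sides of this contrast also have the 2 different value formats, so the lines and the format cannot be told apart.

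**Figure D4:**
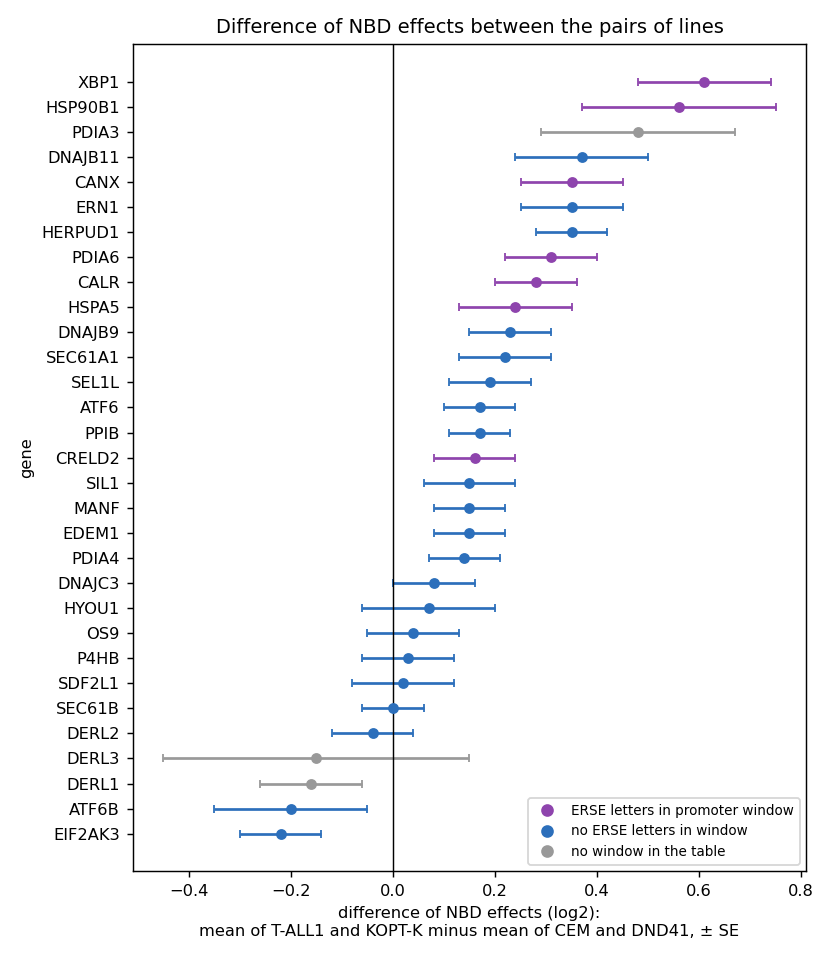
Difference of NBD effects (log2, ± SE) between the mean of T-ALL1 and KOPT-K and the mean of CEM and DND41 for the 31 measured members, coloured by whether the promoter window holds the ERSE letters. XBP1 is highest at 0.61 and EIF2AK3 lowest at -0.22, and the 7 genes with the letters lie between 0.16 and 0.61.

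Set beside the promoter letters printed above, the 7 members with an ERSE (HSPA5, HSP90B1, CALR, CANX, PDIA6, CRELD2 and XBP1) had differences between these lines of 0.16 to 0.61, with a median of 0.31. The 21 measured members with a window but no ERSE ran from -0.22 to 0.37, with a median of 0.15. In CEM the genes with an ERSE ran from -0.67 to 0.00 with a median of -0.18, and the others from -0.29 to 0.18 with a median of -0.04. In DND41 the medians were -0.25 and -0.13, and in T-ALL1 0.17 and 0.04. Without the control array with the actin difference of 3.16 the T-ALL1 medians were 0.07 (PDIA6) and 0.05 (SEC61A1). Without the other control array they were 0.27 (PDIA6) and 0.12 (PDIA4). In KOPT-K they were -0.03 and 0.00, and in HPB-ALL 0.09 and -0.01. The 2 sets overlapped in every line, and this description was not tested. HERPUD1, with an ERSE-II, was at 0.35 in the contrast, while HYOU1 and SDF2L1, which also hold one, were at 0.07 and 0.02.

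The levels with control peptide also differed between lines. Among CEM, DND41 and HPB-ALL the level differed for 23 of 31 members by a moderated F-test (74.2%, against 61.9% of all genes), so the count is near that of genes at large. XBP1 differed most. Its log2 level was 10.66 and 10.55 in DND41, 8.82 and 8.83 in CEM, and 3.64 and 3.83 in HPB-ALL, a span of 6.86 between the means. In HPB-ALL its intensity on all 4 arrays, NBD included, was 12.5 to 16.3, below the filter value of 31.96 and near the lower quartile of all probe sets (a log2 value of 3.67 to 3.69), whereas in DND41 it was 1350 to 1620. The HPB-ALL effect of XBP1 is thus a difference between values near background, and the span is only a lower limit.

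EDEM1 was at 11.11 in DND41, 10.80 in CEM and 9.25 in HPB-ALL, and ERN1 at 9.14, 9.25 and 7.76. HERPUD1 was highest in CEM, at 11.39, then DND41 at 10.70 and HPB-ALL at 10.24. Not every member was low in HPB-ALL. ATF6 was at 9.32 there against 8.78 in both CEM and DND41, and EIF2AK3 at 10.50, against 10.26 in DND41 and 9.50 in CEM. PDIA6 was at 11.34 in HPB-ALL, 11.04 in DND41 and 10.54 in CEM. Of the 31 members, DND41 had the highest mean for 17, CEM for 7 and HPB-ALL for 7, and HPB-ALL had the lowest for 15, CEM for 14 and DND41 for 2. The spread did not separate the lines for HSP90B1, PDIA3, PDIA4, DNAJB11, P4HB, PPIB, DERL1 and DERL3.

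**Figure D5:**
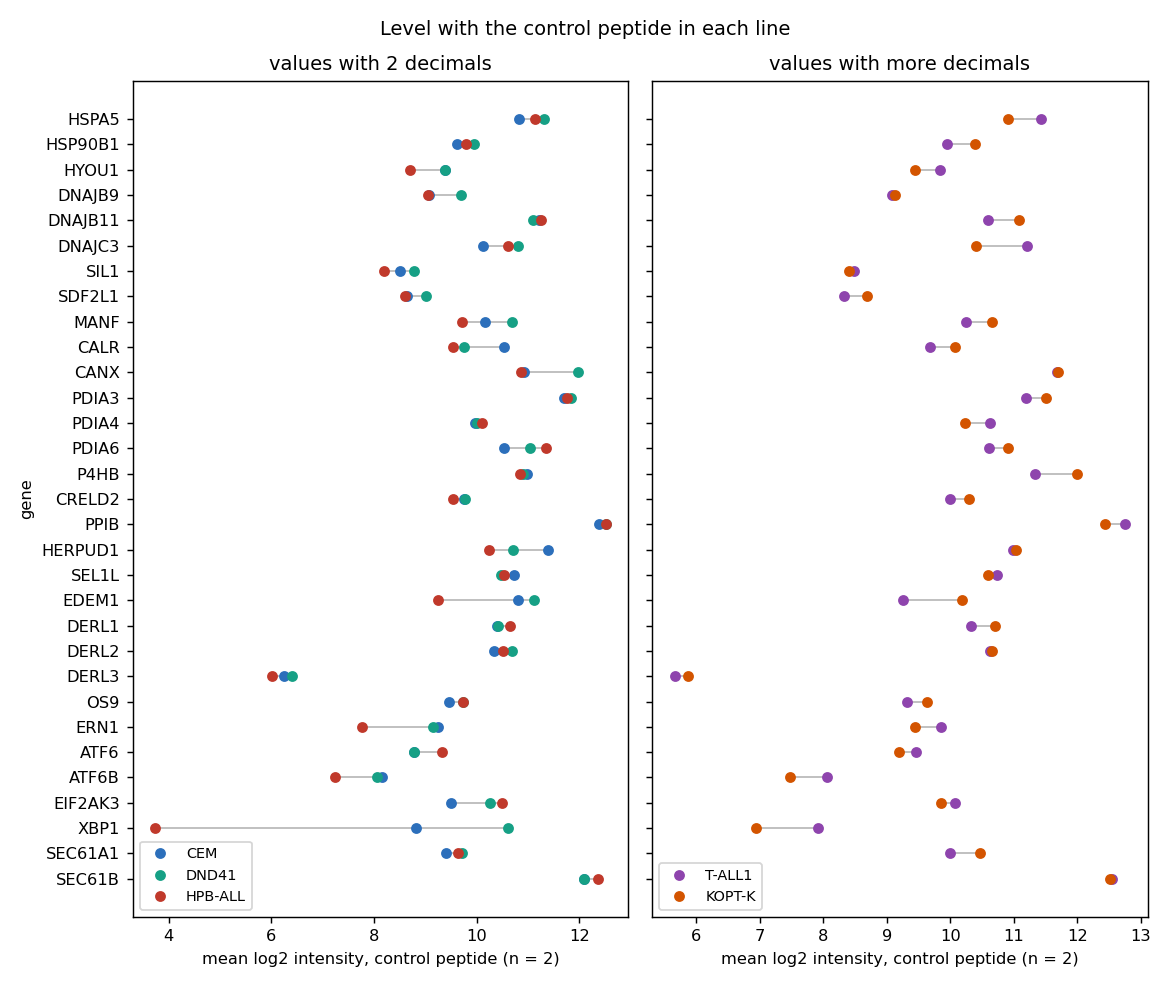
Mean log2 intensity with control peptide (2 arrays) of the 31 measured members in CEM, DND41 and HPB-ALL (left) and in T-ALL1 and KOPT-K (right), with the lines of each value format in a panel of their own. XBP1 spans 3.74 in HPB-ALL to 10.60 in DND41, and EDEM1 has the next widest range of the left panel, 1.86.

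Between KOPT-K and T-ALL1, the lines of the other value format, 21 of 31 members differed with control peptide (67.7%, against 54.2% of all genes), 11 higher and 10 lower in KOPT-K. All 5 sensors and transcription factors were among the lower ones, XBP1 by 0.98 ± 0.13 (SE; limma adjusted p = 1.36e-05), ATF6B by 0.58, ERN1 by 0.41, ATF6 by 0.26 and EIF2AK3 by 0.21. EDEM1 was higher in KOPT-K by 0.94 ± 0.07 and P4HB by 0.66 ± 0.09, and DNAJC3 was lower by 0.80 ± 0.08. These levels rest on the T-ALL1 control arrays. With the actin difference as a covariate 9 of the 31 were called, XBP1, EDEM1, P4HB and DNAJC3 among them. Of the 5 sensors and transcription factors XBP1 alone was still called then, and EIF2AK3 was at 0.09, opposite in sign.

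The wider pathway was followed with lists that share no gene with the 33. The PERK and ATF4 arm, 32 genes of the integrated stress response of which 31 were tested, had 12.9% of its tested genes called in T-ALL1, 16.1% in KOPT-K and 16.1% in DND41, beside the 3.45%, 1.28% and 2.47% of all genes. In T-ALL1 4 rose, ATF3 by 0.87, SLC7A11 by 0.52, CEBPG by 0.46 and MTHFD2 by 0.34, and none fell. Without the T-ALL1 control array with the actin difference of 3.16, SLC7A11 at 0.53 and MTHFD2 at 0.30 lost the call (limma adjusted p = 0.131 and 0.146), while ATF3 at 0.66 and CEBPG at 0.59 kept it. Without the other control array all 4 kept it. In KOPT-K 5 rose, ATF3 by 1.95, PPP1R15A by 0.92, SLC7A11 by 0.70, SESN2 by 0.65 and ATF4 by 0.38. In DND41 5 fell, TRIB3 by 0.87, EIF4EBP1 by 0.63, SLC7A5 by 0.59, SLC7A11 by 0.56 and CEBPB by 0.47. None passed in CEM, where 4 (12.9%) had an unadjusted p under 0.05, against 13.4% of all genes. None passed in HPB-ALL, where 7 (22.6%) had, against 10.4% of all genes. Averaged over the 5 lines 7 of the 31 rose (22.6%, against 8.38% of all genes called) and none fell, with ATF3 at 0.85. The genes named here beyond TRIB3, ATF3 and SLC7A11 were named after their values were seen.

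In this arm 3 genes (9.68%, against 0.428% of all genes) differed between T-ALL1 with KOPT-K and CEM with DND41, where no chaperone did. SLC7A11, the cystine transporter subunit, had a difference of 0.89 ± 0.12 (SE), TRIB3, a pseudokinase that ATF4 induces, 0.77 ± 0.09, and ATF3, a transcription factor downstream of ATF4, 0.97 ± 0.13 (limma adjusted p = 0.0062, 0.00313 and 0.0062). SLC7A11 went from 8.09 and 8.60 with control to 8.997 and 9.09 with NBD in KOPT-K, and from 10.28 and 10.31 to 9.69 and 9.79 in DND41. The arrays did not overlap in either line, and they moved in opposite directions. In HPB-ALL, a line outside this contrast, the mean log2 level of TRIB3 was 10.63 with control and 10.95 with NBD. SLC7A11 and TRIB3 were called in all 30 alternative settings and ATF3 in 27. The median difference over the 31 tested genes was 0.30, and 29 (93.5%) lay above 0, against 50.1% of all genes. That these genes passed and the chaperones did not is no test of a difference between the groups of genes, and the confounding with the value format holds here too.

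In DND41 all 13 tested cytosolic heat shock genes lay below 0, with a median of -0.29, and 3 fell (23.1%, against 2.47% of all genes). All 11 oligosaccharyltransferase genes lay below 0 there with none called by limma. Of these, 5 (45.5%) had an unadjusted p under 0.05, against 14.7% of all genes. Below 0 there were also 18 of 20 translocation genes with 2 called and 16 of 23 folding genes with 2 called (8.70%). Of the 23 tested genes of ER folding and glycan processing, PRDX4 (-0.49 ± 0.10 SE) and FKBP2 (-0.31 ± 0.07) fell in DND41, and of 20 of translocation SRPRB (-0.48 ± 0.09) and SSR4 (-0.35 ± 0.09) fell there (limma adjusted p = 0.0193, 0.0249, 0.014 and 0.0473). Of 21 other genes of ER-associated degradation UBE2J1, a ubiquitin-conjugating enzyme of the ER membrane, rose in DND41 by 0.37. Of 18 COPII and retrieval genes TMED10 fell there by 0.28. Of 11 oligosaccharyltransferase genes TUSC3 fell in T-ALL1 by 0.64, between levels of 4.71 and 4.07 that lie below the filter value. TUSC3 was at -0.38 and lost the call without the T-ALL1 control array with the actin difference of 2.05, and was at -0.90 without the one with 3.16. None of 11 genes of ATF6 processing passed in any single line. Of 13 cytosolic heat shock genes, DNAJA1 rose in CEM by 0.37 and fell in DND41 by 0.32, HSPH1 fell by 0.43 and HSP90AA1 by 0.25 in DND41. Apart from PRDX4, SRPRB and TUSC3 these genes were named after their values were seen. Between T-ALL1 with KOPT-K and CEM with DND41 none of these lists had a gene past the test, with 2 genes named for each list by size. PRDX4 (0.31) and FKBP14 (0.30) differed most in folding, SELENOS (0.18) and VCP (0.13) in degradation, and SRPRB (0.35) and SEC62 (-0.17) in translocation. STT3A (0.27) and TUSC3 (-0.24) differed most among oligosaccharyltransferase genes, GTF2I (0.32) and CREB3L2 (0.30) in ATF6 processing, SEC22B (0.47) and MCFD2 (0.20) among COPII genes, and HSP90AB1 (0.26) and STIP1 (0.25) among heat shock genes.

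Markers of the labelled cell type were present. Of 9 T lineage markers 7 were above the filter value on all 20 arrays, and CD3D had log2 levels of 12.31 to 14.16. The listed markers of B cells, plasma cells, myeloid cells, fibroblasts and epithelium were mixed. MS4A1, TNFRSF17, CD14, LYZ, FCER1G, MPO, COL1A2, COL3A1, LUM and CDH1 were below the filter value on all arrays. Others of these lists were not: CD79B and CD22 of B cells, MZB1 and IRF4 of plasma cells, ITGAM of myeloid cells and COL1A1 of fibroblasts were above it on all 20 arrays, and CD79A on 19, at up to 11.46. Summed intensity over 5 plasma cell markers was 449 to 1430 with control peptide and 461 to 1110 with NBD, and over the B cell markers it reached 3260 and 1640. Over the myeloid markers it was 120.0 to 172 and 121 to 183, and over those of fibroblasts and epithelium 267 to 389 and 274 to 396. CD3D fell with NBD in 4 lines, by 0.72 in DND41, 0.53 in T-ALL1, 0.41 in HPB-ALL and 0.40 in KOPT-K. In T-ALL1 and KOPT-K it was the only one of the 9 T lineage markers called (11.1%, against 3.45% and 1.28% of all genes), and 2 of the 9 lay above 0 in each. In DND41 3 of the 9 fell (33.3%, against 2.47%), and in HPB-ALL 2 fell (22.2%, against 0.783%). CD247 fell in both, by 0.34 and 0.41. None was called in CEM. Averaged over the 5 lines 4 fell (44.4%, against 8.38%), LCK among them. In DND41, beside the chaperone values, CD79A fell by 1.28 ± 0.20 (SE) and CD7 by 0.78 ± 0.09 (limma adjusted p = 0.00538 and 0.000821). The part of such markers in the chaperone values was not tested.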

How the data were processed

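The deposited table gives 1 linear intensity for each of 54675 probe sets on 20 arrays, made by the authors with RMA (robust multi-array average) per the submitters' processing notes, with software and version not given in the sources used here. RNA was amplified in 2 cycles from a small amount, per the labels' protocols. Values were taken to log2 with no pseudocount. Symbols came from the platform annotation (41097 probe sets with 1 gene, 1801 with several, 11777 with none), and 41043 names were found in the RefSeq table. Among a gene's probe sets that name no other gene, the one of highest mean was used, and the gene was tested if it reached the median of all values (31.96, log2 5.00) on at least 2 arrays.

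limma 3.58.1 in R 4.3.3 fitted 10 group means with a shared spread (10 residual and 3.42 prior degrees of freedom), with Benjamini-Hochberg adjustment at 0.05. The groups were not equally spread. Over all tested genes the median gap (log2) between the 2 arrays was 0.193 for T-ALL1 with control peptide, against 0.0741 to 0.12 in the other groups. With a shared spread, p-values may thus be too small in T-ALL1 and too large in the other lines. The fit was tested on simulated data. Each contrast is NBD minus control, within a line, averaged, or compared between lines. No read depth exists, and precision is limited by how few arrays there are. Replicate numbers do not pair arrays, since their deviations correlated at -0.281 to 0.143 within lines.

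The members and all lists were chosen with earlier results of these data known. All members are named. The rule for values array by array (called between the groups of lines, or alike in at least 2 lines) took no member, and of each other list up to 3 called genes, or the 2 with the largest difference between lines, were to be named. Alternatives tried were the filter, the probe set rule, quantile normalization, median centring, an actin covariate, a replicate block, separate fits by value format, a trended robust prior, lines as replicates, other sides of the contrast, each array left out, and, chosen after seeing the data, T-ALL1 left out.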

Additional observations from a re-analysis of the deposited data

Results flagged for a closer look

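Among the ER chaperone and UPR genes, the NBD effect differed between the 5 lines for XBP1 alone (limma adjusted p = 0.0432 for the F-test), with -0.67 in CEM and 0.19 in KOPT-K at the ends of the 4 lines where it was above the filter value. The 0.28 of HPB-ALL lies between values below the filter. In the other lists the same test picked ATF3 (limma adjusted p = 0.00301), whose effects ran from 0.41 in CEM to 1.95 in KOPT-K, SLC7A11 (0.0116), from -0.56 in DND41 to 0.70 in KOPT-K, and TRIB3 (0.00102), from -0.87 in DND41 to 0.32 in HPB-ALL. It also picked SRPRB (0.044), CD7 (0.0368), DNAJA1 (0.00685) and SLC7A5 (0.0494). Between the mean of T-ALL1 with KOPT-K and the mean of CEM with DND41, the difference of effects passed the test for ATF3 at 0.97, SLC7A11 at 0.89 and TRIB3 at 0.77. It passed too for MZB1, an ER protein of B lineage cells counted here as a plasma cell marker, at -0.37.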

How the results depend on the processing

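Counts of members called by limma moved as follows, where the cause was not tested. In T-ALL1 2 were called with both the deposited values and quantile normalization, 1 after median centring, 5 with the mean of all probe sets or a trended robust prior, and 0 with no filter, the actin covariate or T-ALL1 and KOPT-K fitted alone. In KOPT-K 1 became 0 with no filter, the mean of all probe sets, quantile normalization or that separate fit, and 3 with the actin covariate or the trended prior. In CEM 1 became 0 with the mean of all probe sets, 2 after median centring and 3 with the trended prior. In DND41 3 became 1 with no filter, 7 with the actin covariate and 6 with CEM, DND41 and HPB-ALL fitted alone. HPB-ALL stayed at 0 in every setting run. The average over lines went from 4 to 1 with no filter, 7 with the trended prior and 0 with lines as replicates or with T-ALL1 and KOPT-K alone. The F-test between lines went from 1 to 8 with the trended prior and to 0 with no filter, the mean of all probe sets, quantile normalization, the actin covariate, either separate fit, or T-ALL1 left out. The contrast of line pairs went from 0 to 1 with the actin covariate or T-ALL1 alone on the first side and to 2 with the trended prior. The control-level comparison of KOPT-K with T-ALL1 went from 21 to 9 with the actin covariate.

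With the replicate block, which the arrays' deviations do not bear out, the count was 0 for each of the 8 comparisons of NBD with control. The control-level comparisons have no value under the block. Leaving out each array in turn gave 0 to 10 calls in T-ALL1, 0 to 2 in KOPT-K, 0 to 3 in CEM, 0 to 6 in DND41, 1 to 9 for the average, 0 to 11 for the F-test and 0 to 10 for the contrast of line pairs, with the highest counts of T-ALL1 (10), the average, the F-test and the contrast all without T-ALL1 control replicate 2. The highest counts in CEM and DND41 came without either T-ALL1 control array, and the count was 0 in DND41 without control replicate 1, control replicate 2 or NBD replicate 2 of that line, and 0 in CEM without either control or NBD replicate 2 of that line. Signs turned for HSP90B1 in T-ALL1 (-0.34 with the actin covariate), for TUSC3 in T-ALL1 (0.01 with the mean of all probe sets), and, in the level of KOPT-K minus T-ALL1 with the actin covariate, for PDIA6 (-0.03), DNAJB11 (-0.26), EIF2AK3 (0.09) and OS9 (-0.07).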
